A study of Mus musculus with 2 samples.

Results

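The 9 integrin subunit genes described here, Itga4, Itgb7, Itgb1, Itgal, Itgb2, Itgae, Itga1, Itgam and Itga6, were taken by symbol from the 32285 genes of the count tables, and all 9 were found. They were chosen by their CPM and shares of positive cells in these same libraries, with earlier results in view, so their levels and ratios are a description and carry no test. The counts came from bone marrow cells of Irf4-/- mice and of wild-type (WT) C57BL/6 (B6) mice, 1 droplet library per genotype. Irf4 encodes a transcription factor of activated lymphocytes. The cells had been sorted as natural killer progenitors (NKP), a gate that, per the labels, kept CD122-bearing cells and removed those with lineage markers, Ncr1, NK1.1, c-kit or Sca-1. The background strain of the Irf4-/- mice, the structure of the allele, and the age, sex and number of the animals are not given in the sources used here. With 1 library per genotype no difference has a replicate check, and every interval below covers counting error only.

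The library labelled Irf4-/- held 7955 kept cells with a median of 9540 UMIs (unique molecular identifiers, each standing for 1 captured transcript end), and the library labelled WT held 12367 with a median of 7125. They shared 27 barcodes. Levels are given as CPM, the UMIs of a gene scaled to a total of 1000000 UMIs. Irf4 itself was higher, and not lower, under the Irf4-/- label, at 9.77 CPM (interval 9.11 to 10.5) against 3.04 CPM (2.70 to 3.41) under the WT label. The groups are therefore called by their labels throughout, and each direction is between libraries as labelled. Most kept cells were called T cells, with at least 2 CD3 UMIs and at most 1 of CD79. They made up 82.7% in the library labelled Irf4-/- and 89.1% in the library labelled WT. Of 5 natural killer markers, Ncr1 and Klrb1c, which encodes NK1.1, have proteins that the sort selected against. Ncr1 stayed at or below 4.21 CPM in every T population of both libraries, and Klrb1c did not. The markers other than Ncr1 were detected in every T population. In Klre1-positive cells Klrb1c had 34.8 CPM (Irf4-/-) and 28.9 (WT), and Eomes 93.7 (Irf4-/-) and 88.1 (WT). Tyrobp there had 66.3 (Irf4-/-) and 24.2 (WT), and Gzma 5.21 (Irf4-/-) and 6.41 (WT).

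T cells and B-lineage cells were separated by CD3 and CD79 transcripts, and no integrin gene took part. Cd8b1-positive cells numbered 2118 in the library labelled Irf4-/- and 5426 in the library labelled WT. Of the alpha-beta T cells that remained, Klre1-positive cells, marked by a natural killer lectin receptor, numbered 1443 (Irf4-/-) and 597 (WT). Fcer1g-positive cells, marked by a signalling adaptor, numbered 901 in the library labelled Irf4-/- and 1023 in that labelled WT. Other alpha-beta T cells numbered 1153 (Irf4-/-) and 2085 (WT), gamma-delta T cells 765 (Irf4-/-) and 1263 (WT), and B-lineage cells 1041 (Irf4-/-) and 910 (WT). The 5 T populations were deeper in the library labelled Irf4-/-, with medians of 8372 to 11353 UMIs against 5793 to 8087.5 in the library labelled WT.

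Integrins are surface receptors made of an alpha and a beta chain, and each chain reaches the surface with its partner. Integrin alpha 4 pairs with beta 1 to bind VCAM-1 and fibronectin, which retain lymphoid precursors in bone marrow, and with beta 7 to bind MAdCAM-1 of gut vessels. Integrin alpha L with beta 2 forms LFA-1, which binds ICAM proteins in adhesion of lymphocytes to other cells and to vessel walls. Alpha 1 and alpha 6 pair with beta 1 and bind collagen and laminin, alpha E pairs with beta 7 and binds E-cadherin, and alpha M with beta 2 forms the myeloid receptor Mac-1.

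Promoter sequence of RefSeq on GRCm38.p6 was at hand for 5 of the 9 members, Itga4, Itgb7, Itgb1, Itga1 and Itgam. The 250 bases before the start of Itga4 (chr2:79255176-79255425, plus strand) and of Itga1 (chr13:115101965-115102214, minus strand) are shown because these alpha chains had the lowest and the highest ratios between the libraries in Cd8b1-positive cells. Capitals mark matches, on either strand, of 4 motifs: the interferon response element core (a pair of GAAA half-sites in the same direction with 2 bases of any kind between them), the ETS-IRF composite element (the ETS core GGAA ahead of such a half-site at the same spacing), the RUNX core TGTGGT and the GC box GGGCGG.
Itga4: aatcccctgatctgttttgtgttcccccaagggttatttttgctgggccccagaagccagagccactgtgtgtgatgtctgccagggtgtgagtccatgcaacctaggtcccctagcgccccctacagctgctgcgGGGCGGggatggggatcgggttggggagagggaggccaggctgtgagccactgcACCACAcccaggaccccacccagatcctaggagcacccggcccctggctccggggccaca
Itga1: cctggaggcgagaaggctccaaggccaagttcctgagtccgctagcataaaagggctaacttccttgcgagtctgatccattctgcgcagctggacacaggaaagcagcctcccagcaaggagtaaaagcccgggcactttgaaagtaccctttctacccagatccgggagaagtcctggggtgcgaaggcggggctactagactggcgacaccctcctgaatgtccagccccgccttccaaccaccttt

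The Itga4 window held 1 RUNX core, written as ACCACA on the strand shown, and 1 GC box. The Itga1 window held none of the 4 motifs. Neither motif that IRF proteins are known to bind was found in any of the 5 windows. Among 32851 promoter windows of the same length, 2.98% held the interferon response element core, 2.30% the composite element, 14.0% the RUNX core and 32.7% the GC box. A match describes letters only, and so does its absence.

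Across the 5 T populations, Itgal, Itgb2 and Itga1 had higher CPM in the library labelled Irf4-/- than in the library labelled WT, each with intervals above 0 in 5 of 5. Itga4 was lower in 5 of 5 with intervals below 0, a direction that turned in T cells and in Cd8b1-positive and Fcer1g-positive cells when cells of like depth were compared. Itgb7 and Itgb1 had no common direction. Itga6 was below 0 in 5 of 5, with 3 intervals clear of 0. Itgae and Itgam were near the limit of detection in T cells. Differences of ratios between populations were not tested.

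**Figure D1:**
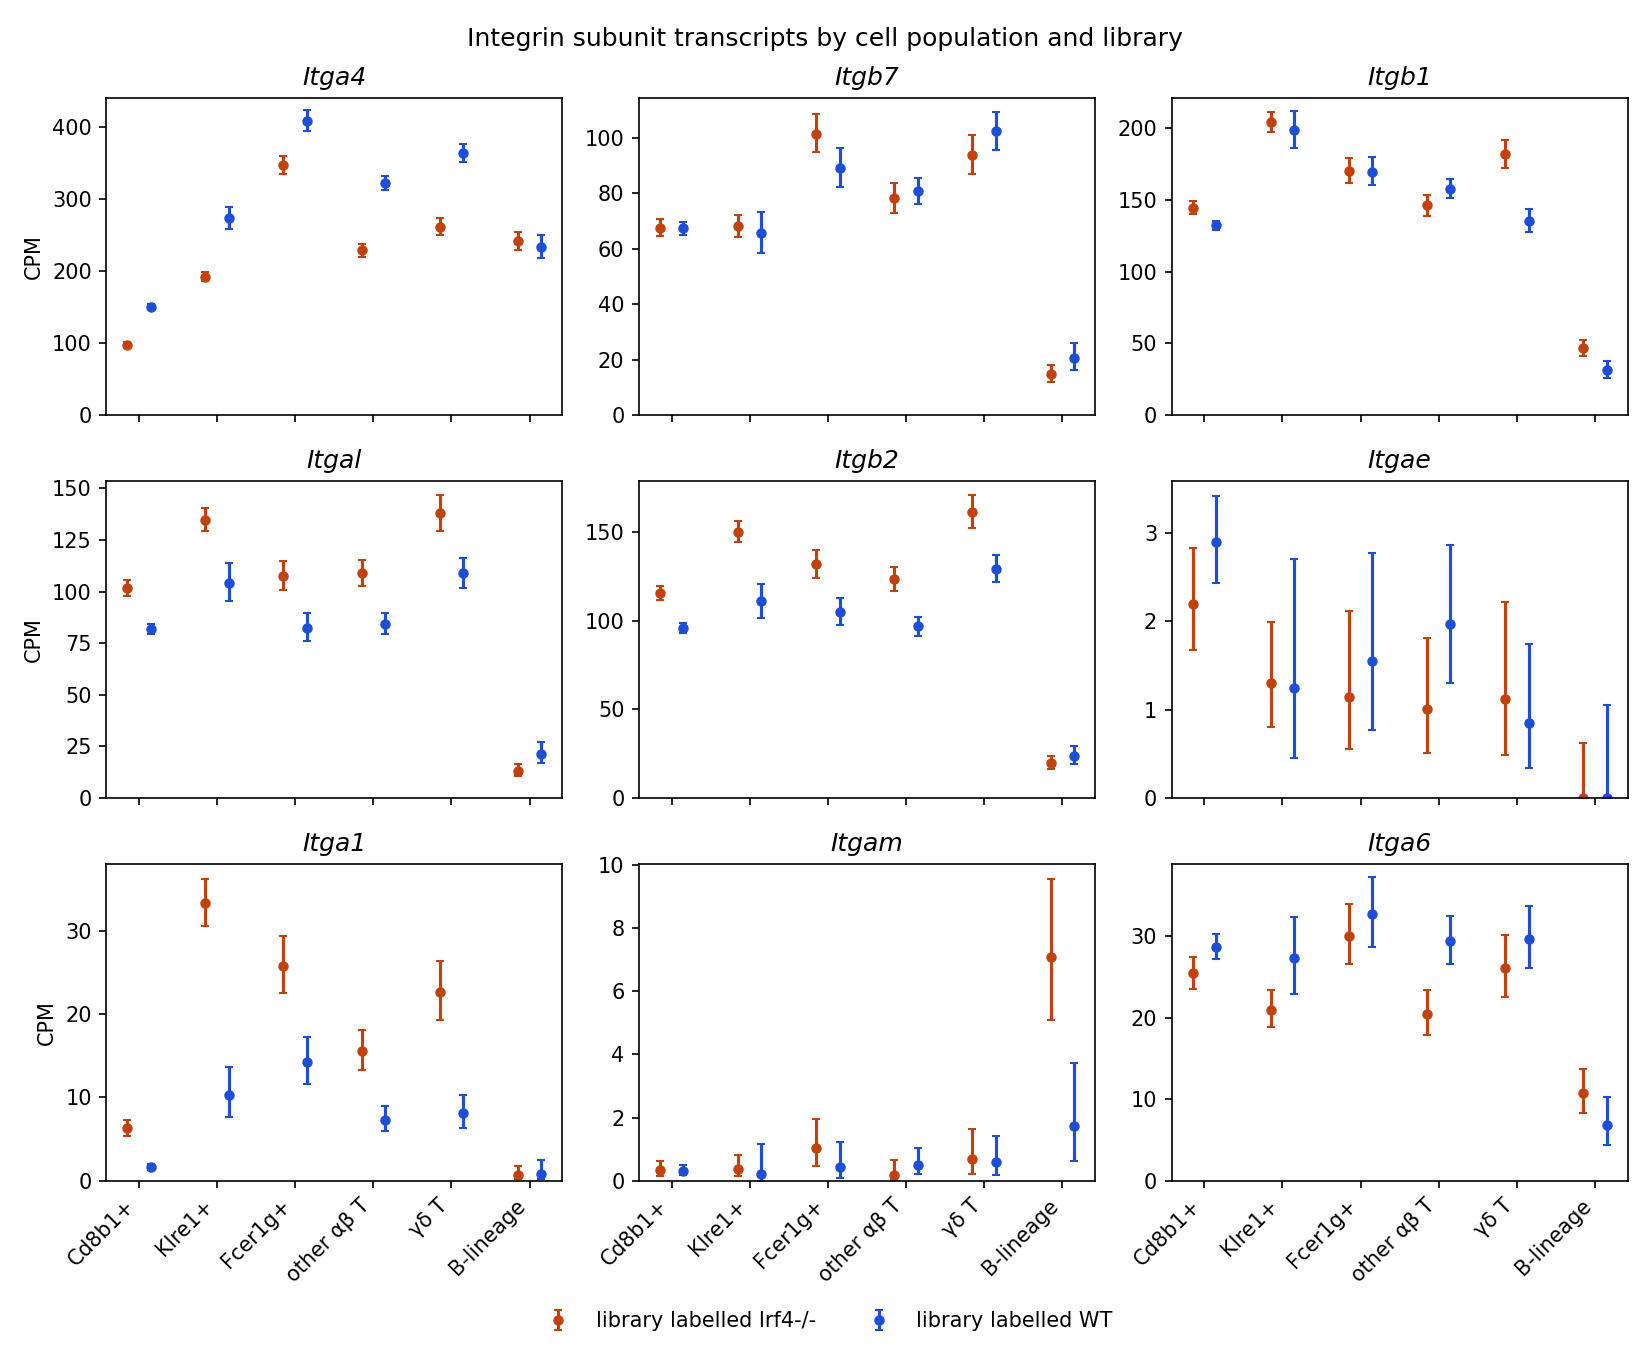
CPM of each integrin subunit gene (vertical axes, linear and scaled for each gene) in 6 populations, for the library labelled Irf4-/- (orange, left of each pair) and the library labelled WT (blue), with exact Poisson 95% intervals as bars. Itgal, Itgb2 and Itga1 are higher in orange in all 5 T populations, while in B-lineage cells Itgb7, Itgb1, Itgal and Itgb2 are far below their T cell levels in both colours and Itga4 is not.

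A log2 ratio of at least 0.5 in either direction, in genes with at least 50 UMIs over both libraries, was counted for members and for all genes. In Cd8b1-positive cells 8 members had enough UMIs, of which Itga1 lay above (6.54% of all genes did) and Itga4 below (4.07% of all genes). The Klre1-positive cells had 7 such members, with Itga1 above (background 5.44%) and Itga4 below (background 3.99%). In Fcer1g-positive cells Itga1 was above (background 4.2%) and none of 7 was below (background 2.69%). In other alpha-beta T cells Itga1 was above (background 3.36%) and Itga6 below (background 3.52%), of 7 members. Gamma-delta T cells had Itga1 above (background 5.22%) and none of 7 below (background 3.58%). In B-lineage cells Itgb1 and Itga6 were above (background 10.0%) and Itgal below (background 6.6%), of 6 members. Over all T cells the 9 members had Itga1 above (background 6.85%) and Itgae below (background 3.98%). The median over members was 0.20 on the log2 scale in T cells, against 0.01 over all genes. By population it was 0.07 in Cd8b1-positive, 0.05 in Klre1-positive and 0.19 in Fcer1g-positive cells. It was -0.05 in other alpha-beta and 0.32 in gamma-delta T cells. Over all genes the medians of these populations lay between -0.03 and 0.002.

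**Figure D2:**
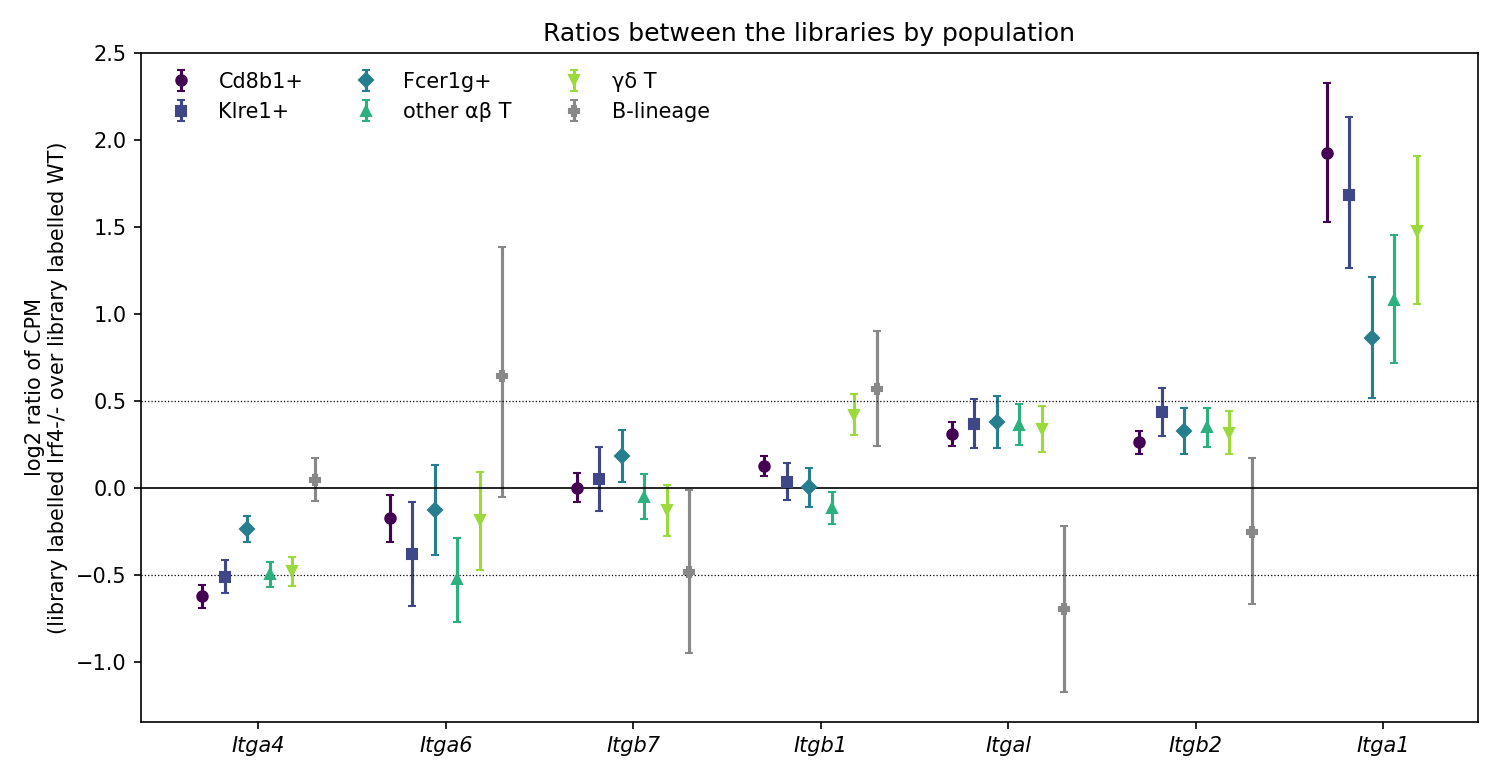
Log2 of the CPM under the Irf4-/- label over the CPM under the WT label for the 7 members with at least 50 UMIs in most populations (horizontal axis), 1 symbol per population with its exact conditional binomial 95% interval, and dotted lines at 0.5 above and below 0. Itgal and Itgb2 lie between 0.27 and 0.44 in the 5 T populations, Itga1 lies above 0.86, and the B-lineage symbols (grey) lie on the other side of 0 from all 5 T populations for Itga4, Itga6, Itgal and Itgb2.

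Itga4 (ENSMUSG00000027009, chromosome 2, 79255426 to 79333123, plus strand) encodes the alpha 4 chain. In Cd8b1-positive cells it had 97.7 CPM in the library labelled Irf4-/- and 150.2 in the library labelled WT. The Klre1-positive cells had 192 (Irf4-/-) and 273 (WT), and the Fcer1g-positive cells 348 in the library labelled Irf4-/- and 409 in that labelled WT. Fcer1g-positive cells thus stood highest and Cd8b1-positive cells lowest in each library. Other alpha-beta T cells had 229 CPM (Irf4-/-) and 322 (WT), and gamma-delta T cells 262 (Irf4-/-) and 364 (WT). B-lineage cells had 242 (Irf4-/-) and 234 (WT), within counting error of each other. Among neighbours in the order of levels, gamma-delta T, B-lineage and other alpha-beta T cells had overlapping intervals in the library labelled Irf4-/-, and no neighbours did in the library labelled WT.

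The Itga4 log2 ratio was -0.62 (interval -0.69 to -0.56) in Cd8b1-positive, -0.51 (-0.60 to -0.41) in Klre1-positive and -0.23 (-0.31 to -0.16) in Fcer1g-positive cells. It was -0.49 (-0.56 to -0.42) in other alpha-beta and -0.48 (-0.56 to -0.39) in gamma-delta T cells, against 0.05 (-0.07 to 0.18) in B-lineage cells. After thinning each cell to 2000 UMIs, an Itga4 UMI was found in 15.7% of Cd8b1-positive cells labelled Irf4-/- (14.2% to 17.3%) and 21.3% of those labelled WT (20.2% to 22.4%). Before thinning, when the deeper library counts more cells, these shares were 46.7% (Irf4-/-) and 48.6% (WT). At equal depth the gamma-delta T shares were 33.6% (Irf4-/-) and 45.6% (WT), and the B-lineage shares were 38.1% (Irf4-/-) and 33.6% (WT). Within the Cd8b1-positive cells the ratio was -0.51 in those with Klre1, -0.62 in those with Ccr7 and no Klre1, and -0.86 in those with neither.

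The Itga4 difference moved with the depth of the cells. In both libraries Itga4 took a larger part of the UMIs of shallow T cells than of deep ones. Quartiles of UMIs per cell were set within each library, and in the lowest T cells had 358 CPM of Itga4 in the library labelled Irf4-/- and 467 in the library labelled WT. The highest quartile had 144 (Irf4-/-) and 176 (WT). By such quartiles the ratio was below 0 in 20 of 20 cases of 5 T populations, with 19 intervals clear of 0. By fixed bins of UMIs per cell it was below 0 in 13 of 22 cases and above 0 in 9. Among T cells of 5000 to 7500 UMIs Itga4 had 392 CPM in the library labelled Irf4-/- and 287 in that labelled WT, a log2 ratio of 0.45 (0.38 to 0.51), and among those of 10000 to 15000 UMIs it had 135 (Irf4-/-) and 194 (WT), a ratio of -0.52 (-0.59 to -0.44). In cells of 5000 to 10000 UMIs the ratio was 0.13 in Cd8b1-positive cells and 0.30 in all T cells, both turned from negative. The part of depth in the Itga4 difference was not tested, and depth and genotype label cannot be told apart with 1 library each.

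**Figure D3:**
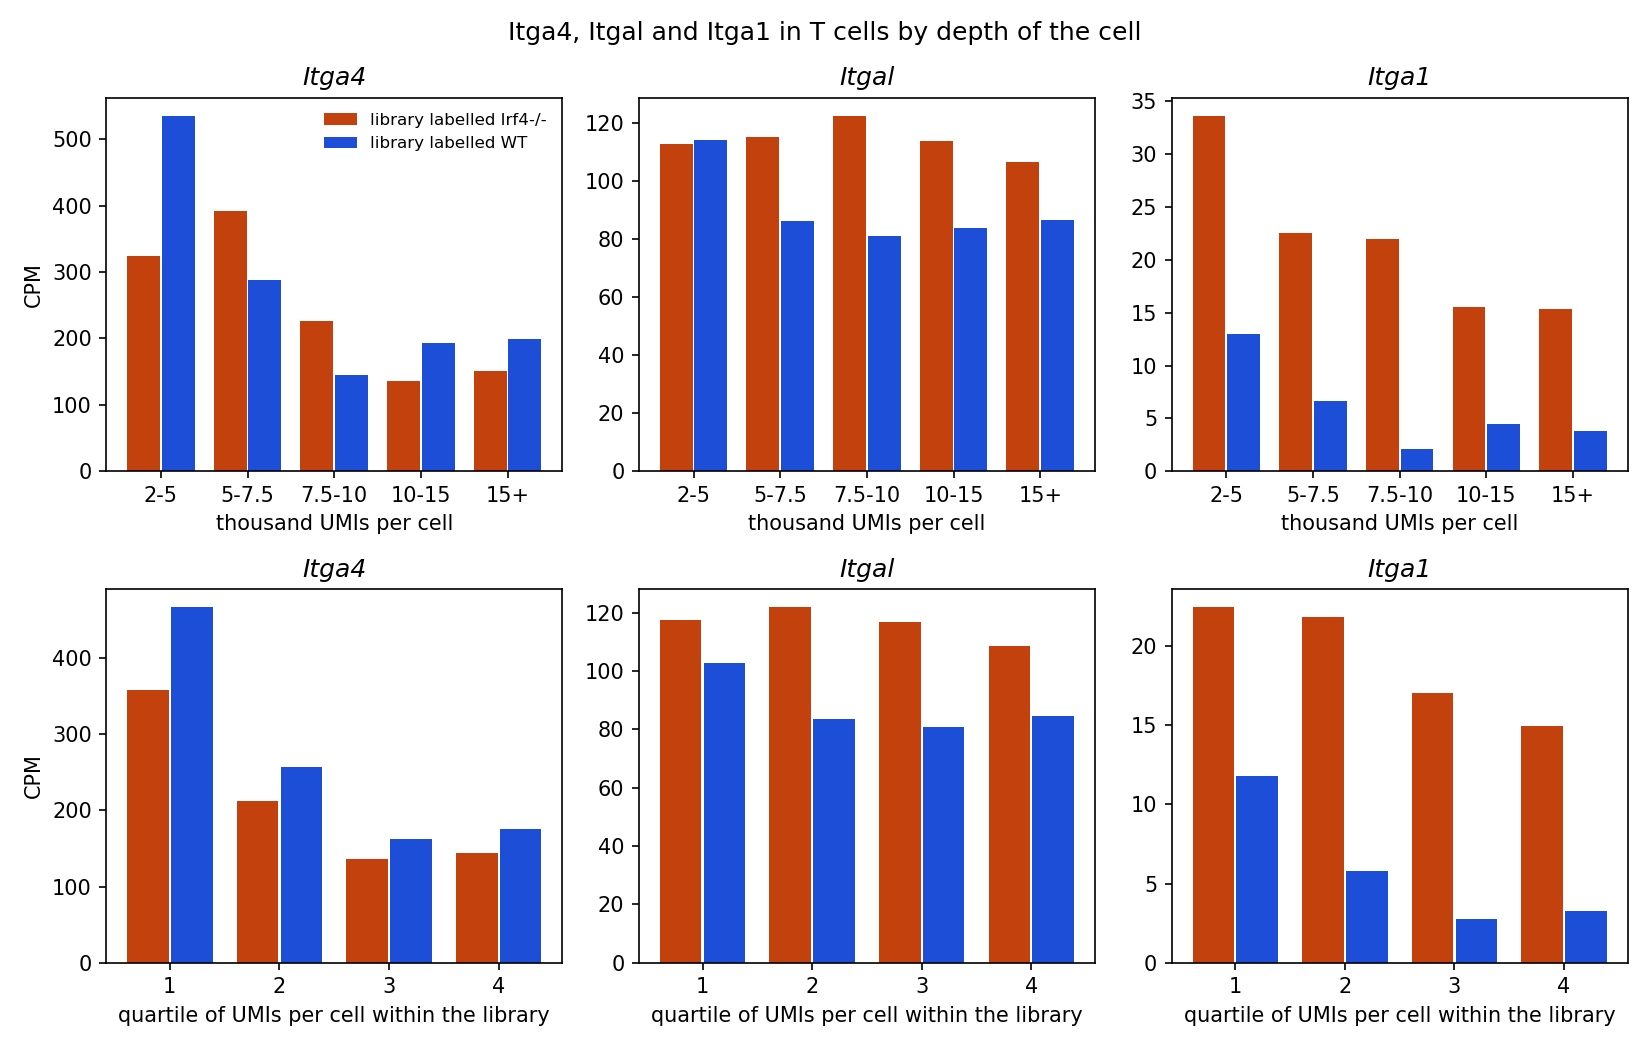
CPM of Itga4, Itgal and Itga1 in T cells of the library labelled Irf4-/- (orange, left of each pair) and the library labelled WT (blue), by fixed bins of UMIs per cell (top row, each tick label times 1000) and by quartile of UMIs per cell within each library (bottom row); bars start at 0. For Itga4 the orange bar is lower in all 4 quartiles but higher in the fixed bins from 5000 to 10000 UMIs, while for Itga1 it is higher in every bin shown and for Itgal in every bin but the shallowest, where the values were 113 (Irf4-/-) and 114 (WT).

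Itgb1 (ENSMUSG00000025809, chromosome 8, 128685654 to 128733200, plus strand) encodes the beta 1 chain, the partner of alpha 1, alpha 4 and alpha 6. It had 144 CPM in Cd8b1-positive cells of the library labelled Irf4-/- and 132 in those of the library labelled WT, a log2 ratio of 0.13 (0.07 to 0.19). Klre1-positive cells stood highest in each library, at 204 (Irf4-/-) and 199 (WT), and Fcer1g-positive cells had 170.4 (Irf4-/-) and 169.7 (WT). Gamma-delta T cells had the highest ratio among the T populations, with 182 CPM in the library labelled Irf4-/- and 135 in that labelled WT, at 0.42 (0.31 to 0.54). Their thinned shares were 29.4% (Irf4-/-) and 20.2% (WT). In other alpha-beta T cells the ratio was -0.11 (-0.21 to -0.02), and 0.0049 when the gates used thinned counts. The Cd8b1-positive ratio was 0.13 in cells with Klre1 and -0.25 in cells with neither Klre1 nor Ccr7, and turned to -0.05 once these kinds were weighted equally in both libraries.

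Itgb7 (ENSMUSG00000001281, chromosome 15, 102215995 to 102231944, minus strand) encodes the beta 7 chain, the partner of alpha 4 and alpha E. Its levels in Cd8b1-positive cells were 67.6 CPM in the library labelled Irf4-/- and 67.4 in the library labelled WT, a log2 ratio of 0.00 (-0.08 to 0.09). Gamma-delta T cells had 93.7 (Irf4-/-) and 102 (WT), and Fcer1g-positive cells 101 (Irf4-/-) and 89.0 (WT). Only the Fcer1g-positive interval lay clear of 0 among T populations, at 0.19 (0.04 to 0.34), and with gates allowed to overlap the value was -0.02. Neither partner of alpha 4 shared the Itga4 values: in Cd8b1-positive cells the ratios were -0.62 for Itga4, 0.13 for Itgb1 and 0.00 for Itgb7.

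The genes of LFA-1 had like ratios in every T population. Itgal (ENSMUSG00000030830, chromosome 7, 127296260 to 127335138, plus strand) encodes alpha L and Itgb2 (ENSMUSG00000000290, chromosome 10, 77530252 to 77565708, plus strand) encodes beta 2. In Cd8b1-positive cells Itgal had 102 CPM in the library labelled Irf4-/- and 81.9 in the library labelled WT, and Itgb2 had 116 (Irf4-/-) and 96.2 (WT). Klre1-positive cells had 135 (Irf4-/-) and 104 (WT) for Itgal, and 150.3 (Irf4-/-) and 111 (WT) for Itgb2. In gamma-delta T cells, the highest population in each library, Itgal had 138 (Irf4-/-) and 109 (WT), and Itgb2 162 (Irf4-/-) and 129.5 (WT). Their intervals overlapped those of Klre1-positive cells for Itgal in both libraries and for Itgb2 in the library labelled Irf4-/-. No T population had overlapping CPM intervals between the libraries for either gene.

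Over the 5 T populations the log2 ratios ran from 0.31 to 0.38 for Itgal and from 0.27 to 0.44 for Itgb2. For all T cells they were 0.41 (0.37 to 0.46) for Itgal and 0.39 (0.34 to 0.43) for Itgb2, and neither reached the fold of 0.5 used for counting. After thinning, 20.2% of T cells had an Itgal UMI in the library labelled Irf4-/- and 15.7% in the library labelled WT, and 23.0% (Irf4-/-) and 18.6% (WT) had an Itgb2 UMI. By population, the intervals of these shares were apart for both genes in Cd8b1-positive and Klre1-positive cells. They overlapped between the libraries in Fcer1g-positive, other alpha-beta and gamma-delta T cells. The Itgb2 shares of gamma-delta T cells were 24.3% (Irf4-/-, 21.3% to 27.5%) and 23.7% (WT, 21.4% to 26.2%). The Itgal ratio was above 0 in 22 of 22 cases of fixed depth bins of the 5 T populations, with 13 intervals clear of 0. By quartiles it was above 0 in 20 of 20 cases, with 15 intervals clear. The Itgb2 ratio was above 0 in 21 of 22 cases with 14 intervals clear, and in 20 of 20 with 16 clear. Over all T cells together the Itgal ratio was not above 0 in the shallowest bin. Within Cd8b1-positive cells the Itgal ratio was 0.35 with Klre1, 0.34 with Ccr7 and no Klre1, and 0.14 (0.02 to 0.26) with neither.

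Itga1 (ENSMUSG00000042284, chromosome 13, 114953096 to 115101964, minus strand) encodes alpha 1, the collagen-binding chain found on tissue-resident lymphocytes. Its ratio was the highest of the members with at least 50 UMIs in each T population. Over these populations it was above 0 in 20 of 20 cases of depth quartiles, with 18 intervals clear of 0. By fixed depth bins it was above 0 in 21 of 22 cases, also with 18 clear. In Klre1-positive cells it had 536 UMIs, 33.3 CPM, in the library labelled Irf4-/- and 50 UMIs, 10.3 CPM, in the library labelled WT, a log2 ratio of 1.69 (1.27 to 2.13). Fcer1g-positive cells had 25.8 CPM (Irf4-/-) and 14.2 (WT), a ratio of 0.86 (0.52 to 1.22). Gamma-delta T cells had 22.6 (Irf4-/-) and 8.11 (WT), and other alpha-beta T cells 15.6 (Irf4-/-) and 7.35 (WT), with ratios of 1.48 in the gamma-delta and 1.09 in the other alpha-beta cells. In Cd8b1-positive cells, the lowest T population, Itga1 had 6.28 CPM (Irf4-/-) and 1.65 (WT), a ratio of 1.93 (1.53 to 2.33). Over the alternatives run this ratio went from 1.35, with the Klre1 and Ccr7 kinds weighted equally, to 3.13, among cells of 5000 to 10000 UMIs, and the Klre1-positive ratio went from 1.58, without cycling cells, to 2.45, with gates on thinned counts. In B-lineage cells it had 4 UMIs in the library labelled Irf4-/- and 3 in the library labelled WT, too few to compare.

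Itga1 was found in few cells at equal depth. At 2000 UMIs per cell, an Itga1 UMI was found in 6.17% of Klre1-positive cells labelled Irf4-/- (4.99% to 7.54%) and 1.51% of those labelled WT (0.693% to 2.85%). In B-lineage cells the shares were 0.195% (Irf4-/-) and 0 of 875 cells (WT), which allows up to 0.421%. Median depths of the B-lineage cells before thinning were 4158 (Irf4-/-) and 2974.5 UMIs (WT). Before thinning, when the deeper library counts more cells, the Klre1-positive shares with Itga1 were 22.6% (Irf4-/-) and 6.20% (WT). Of the Itga1 UMIs of Cd8b1-positive cells, 123 of 169 in the library labelled Irf4-/- and 15 of 80 in the library labelled WT lay in cells that also had Klre1. Such cells were 604 of 2118 (Irf4-/-) and 417 of 5426 (WT). There the levels were 14.2 CPM (Irf4-/-) and 3.27 (WT), a ratio of 2.12 (1.34 to 2.998). In Cd8b1-positive cells with neither Klre1 nor Ccr7 they were 2.89 (Irf4-/-) and 1.74 (WT), with an interval that held 0. The summed natural killer markers, of which 5 of 5 had a UMI, stood at 201 CPM (Irf4-/-) and 148 (WT) in Klre1-positive cells, with Gzma on the other side. The sum was higher in the library labelled Irf4-/- in the Fcer1g-positive, other alpha-beta and gamma-delta T cells too. Eomes, at 56.98 (Irf4-/-) and 65.7 (WT), and Gzma, at 1.95 (Irf4-/-) and 3.79 (WT), went against it in Fcer1g-positive cells. So did Eomes, at 72.97 (Irf4-/-) and 73.6 (WT), and Gzma, at 3.65 (Irf4-/-) and 4.72 (WT), in gamma-delta T cells. In Cd8b1-positive cells, where the Itga1 ratio was highest, the sum ran the other way, at 97.8 (Irf4-/-) with Ncr1 at 0 and 107 (WT). Klrb1c, at 5.83 (Irf4-/-) and 3.27 (WT), and Tyrobp, at 11.96 (Irf4-/-) and 8.41 (WT), were nevertheless higher there under the Irf4-/- label. The part of these markers in the Itga1 difference was not tested. Pelo lies within Itga1 on the same strand and could share reads with it. In T cells Pelo had 18.3 CPM (Irf4-/-) and 15.4 (WT), a ratio of 0.25 (0.13 to 0.36). Itga1 had 18.1 (Irf4-/-) and 4.96 (WT), a ratio of 1.86 (1.71 to 2.03). The Pelo ratio was 0.27 (0.08 to 0.45) in Cd8b1-positive and -0.18 (-0.49 to 0.14) in Klre1-positive cells. Sharing of reads between Pelo and Itga1 was not tested.

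Itga6 (ENSMUSG00000027111, chromosome 2, 71745616 to 71858416, plus strand) encodes alpha 6, a laminin-binding chain. In other alpha-beta T cells it had 20.4 CPM in the library labelled Irf4-/- and 29.4 in the library labelled WT, a log2 ratio of -0.52 (-0.77 to -0.28). Klre1-positive cells had 20.98 (Irf4-/-) and 27.3 (WT), and Cd8b1-positive cells 25.4 (Irf4-/-) and 28.6 (WT), with ratios of -0.38 (-0.67 to -0.08) in Klre1-positive and -0.17 (-0.31 to -0.04) in Cd8b1-positive cells. Fcer1g-positive cells lay at -0.12 and gamma-delta T cells at -0.18, with intervals that held 0. By fixed depth bins the ratio was below 0 in 13 of 22 cases and by quartiles in 16 of 20, so the direction did not hold at every depth. At 2000 UMIs 4.14% of T cells (Irf4-/-) and 5.88% (WT) had an Itga6 UMI.

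Itgae (ENSMUSG00000005947, chromosome 11, 73090583 to 73147446, plus strand) encodes alpha E, or CD103, a chain of epithelial and some naive CD8 T cells. It had 59 UMIs in Cd8b1-positive cells of the library labelled Irf4-/-, 2.19 CPM (1.67 to 2.83), and 140 UMIs in those of the library labelled WT, 2.89 CPM (2.43 to 3.41). The ratio of -0.40 (-0.86 to 0.05) was not distinguishable from 0 at this depth. It was -0.61 without cycling cells and -1.27 among cells of 5000 to 10000 UMIs, both with intervals clear of 0. Over all T cells there were 110 UMIs, 1.54 CPM (Irf4-/-), and 198 UMIs, 2.30 CPM (WT), a ratio of -0.58 (-0.93 to -0.23). Cd8b1-positive cells, the highest population though with an interval overlapping the next, made up a smaller part of the T cells labelled Irf4-/-. With the T populations weighted equally in both libraries the ratio was -0.41. B-lineage cells had no Itgae UMI in either library, which allows up to 0.620 CPM (Irf4-/-) and 1.06 (WT).

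Itgam (ENSMUSG00000030786, chromosome 7, 128062640 to 128118491, plus strand) encodes alpha M, a chain of myeloid and natural killer cells. T cells had 31 UMIs, 0.435 CPM (0.296 to 0.618), in the library labelled Irf4-/- and 32 UMIs, 0.372 CPM (0.254 to 0.525), in the library labelled WT. The few myeloid cells of the sort, 24 (Irf4-/-) and 21 (WT), had 170.0 CPM (Irf4-/-) and 165 (WT). In T cells, 0.0913% (Irf4-/-) and 0.0455% (WT) had an Itgam UMI after thinning. No difference in T cells was detectable at this depth.

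In B-lineage cells Itgb7, Itgb1, Itgal, Itgb2 and Itga6 stood below every T population of the same library, with intervals that did not overlap. Itgb1 had 46.8 CPM in the library labelled Irf4-/- and 31.5 in the library labelled WT, a log2 ratio of 0.57 (0.25 to 0.90), and -0.09 among cells of 5000 to 10000 UMIs. Itgal had 13.3 (Irf4-/-) and 21.5 (WT), a ratio of -0.69 (-1.17 to -0.22), and Itgb7 had 14.8 (Irf4-/-) and 20.6 (WT), a ratio of -0.48 (-0.94 to -0.01). Precursor cells with Vpreb1 or Igll1, genes of the surrogate light chain, numbered 331 of the B-lineage cells labelled Irf4-/- and 18 of those labelled WT. Without them the ratios were 0.40 (0.03 to 0.77) for Itgb1, -0.24 (-0.73 to 0.25) for Itgal and 0.03 (-0.45 to 0.51) for Itgb7. Itgb2 was at 20.01 (Irf4-/-) and 23.8 (WT) with an interval that held 0, as did that of Itga6, at 10.8 (Irf4-/-) and 6.87 (WT). The Itga6 ratio of 0.65 was 0.13 without cycling cells and 1.96 among cells of 5000 to 10000 UMIs.

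Itgam had 42 UMIs in B-lineage cells labelled Irf4-/-, 7.06 CPM, and 6 in those labelled WT, 1.72 CPM, and 29 of the 42 were in cells with Vpreb1 or Igll1. The ratio of 2.04 (0.80 to 3.57) rests on fewer than the 50 UMIs set as the minimum. Myeloid markers in the same cells summed to 538.5 CPM with 7 of 7 detected (Irf4-/-), and to 185 with 5 of 7 detected (WT), Elane and Mpo being at 0. Erythroid and platelet markers summed to 10.8 (Irf4-/-) and 2358 (WT) in B-lineage cells and to 7.58 (Irf4-/-) and 1511 (WT) in gamma-delta T cells. They were lower in the library labelled Irf4-/- in the other T populations too, at 8.14 (Irf4-/-) and 611 (WT) in Fcer1g-positive, 225 (Irf4-/-) and 673 (WT) in Klre1-positive, 245 (Irf4-/-) and 492 (WT) in Cd8b1-positive and 156 (Irf4-/-) and 255 (WT) in other alpha-beta T cells. Alpha-beta T cell markers summed to 25.4 (Irf4-/-) and 48.4 (WT) in B-lineage cells. In Fcer1g-positive cells the myeloid markers summed to 121 (Irf4-/-) and 2.67 (WT), in gamma-delta T cells to 11.6 (Irf4-/-) and 45.6 (WT), and in the other T populations to between 2.26 and 9.82 in both libraries. The part of these markers in the integrin ratios was not tested.

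Partner chains were read in the same cells at 2000 UMIs per cell. The share of cells with both transcripts lay within its interval of the product of the single shares in 79 of 84 cases, above it in 5 and below it in none. Some of the 79 had a product of 0 and lay inside by arithmetic, such as Itgae with Itgb7 in B-lineage cells. The 5 included Cd8b1-positive cells labelled WT, for Itga4 with Itgb1 (5.49% against 4.25%) and Itgal with Itgb2 (3.21% against 2.55%). The count of 79 therefore does not show that partner chains are independent. In Fcer1g-positive cells 11.1% of the library labelled Irf4-/- and 13.8% of the library labelled WT had both Itga4 and Itgb1, and 7.66% (Irf4-/-) and 8.02% (WT) had Itga4 and Itgb7. For Itgal with Itgb2 the highest shares were 7.45% (Irf4-/-) and 5.08% (WT), in gamma-delta T cells of each library. Itga1 with Itgb1 was found in 2.77% (Irf4-/-) and 1.17% (WT) of Klre1-positive cells. Itgae with Itgb7 reached at most 0.0944% (Irf4-/-) and 0.129% (WT). A cell thinned to this depth can lose a transcript it holds, so absence of a partner in a cell is not absence of the chain.

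**Figure D4:**
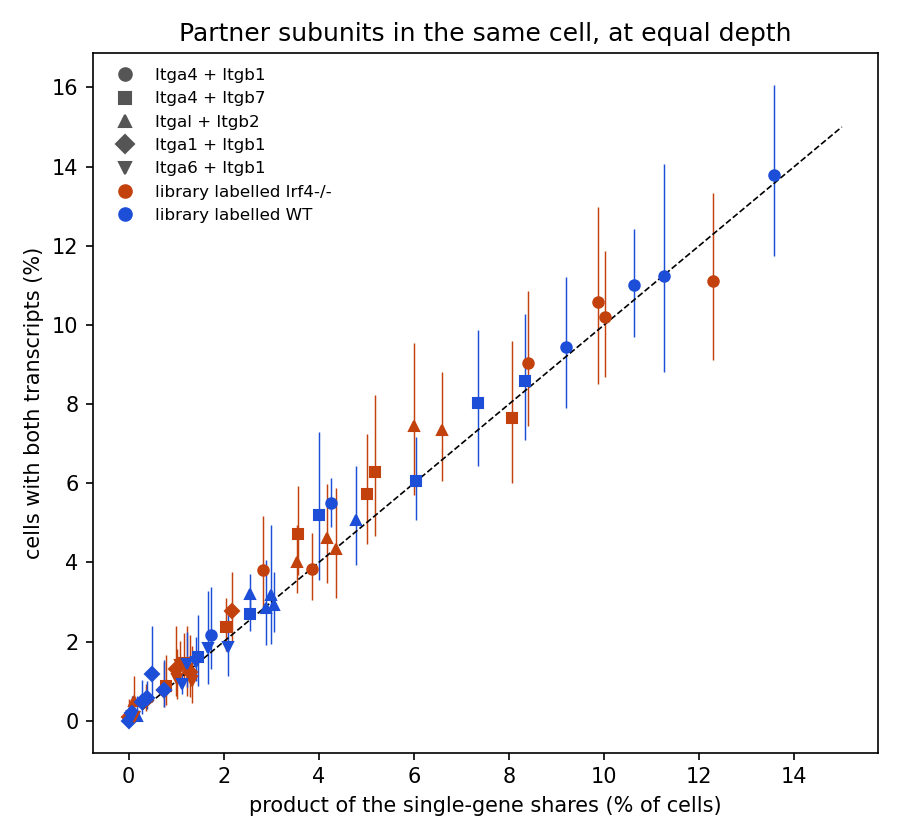
Share of cells with both transcripts of a partner pair (vertical axis, % of cells thinned to 2000 UMIs, bars are exact Clopper-Pearson 95% intervals) against the product of the shares of the single genes (horizontal axis), for 5 pairs in 6 populations of the library labelled Irf4-/- (orange) and the library labelled WT (blue). Points lie near the dashed line of equality, with the intervals of 5 above it, up to the highest share, 13.8% for Itga4 with Itgb1 in the library labelled WT.

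Other genes of integrin function were read as 5 lists in T cells, with the same fold and minimum, beside which 6.85% of all genes in T cells lay above the fold and 3.98% below. Of the 18 other integrin subunits 8 had at least 50 UMIs, with 2 above and 1 below and a median of 0.04. Itga2, the alpha 2 collagen receptor chain whose gene neighbours Itga1 on chromosome 13 (114833081 to 114932100), had 25.04 CPM in the library labelled Irf4-/- and 13.3 in that labelled WT, a log2 ratio of 0.91 (0.81 to 1.02). It was 1.05 in gamma-delta T cells, 0.97 in Cd8b1-positive cells and -0.15 (-0.42 to 0.11) in other alpha-beta T cells. In Klre1-positive cells it was 0.36 (0.11 to 0.62), and in Fcer1g-positive cells 0.22 (-0.07 to 0.50). Itga3, another laminin-binding chain, was at 0.51 with an interval that held 0. Itgb3, the beta chain of the vitronectin receptor, had 3.09 (Irf4-/-) and 4.52 (WT), a ratio of -0.55 (-0.80 to -0.31), and Itgad, an alpha chain that pairs with beta 2, was at -0.12 (-0.77 to 0.51).

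The median ratio of genes that switch integrins to the active state was -0.0012, against 0.01 over all genes. Of 12, 10 had enough UMIs, none lay above the fold (all genes 6.85%) and Tln2, with 18 UMIs (Irf4-/-) and 33 (WT), lay below it (all genes 3.98%) with an interval that held 0. Itgb1bp1, an inhibitor of beta 1 activation, was at 0.11 and Fermt3 (kindlin-3) at 0.08, the highest of the list, and Rasgrp2, which activates Rap1, was at -0.24 (-0.29 to -0.19). Of 12 adhesion adaptors 10 had enough UMIs, with Vcl (vinculin) above at 0.59 (0.23 to 0.96) and none below (all genes 6.85% above and 3.98% below), and a median of 0.10. Parvg was at 0.24, Fyb at -0.22 and Lims1 at -0.14.

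Of 8 genes of integrin ligands 5 had enough UMIs, with a median of 0.17. Cdh1 (E-cadherin), the ligand of alpha E, was the 1 above (all genes 6.85%), with 41 UMIs (Irf4-/-) and 30 (WT). Icam1, a ligand of LFA-1, had 38.1 CPM (Irf4-/-) and 29.8 (WT), a ratio of 0.35 (0.27 to 0.43), and Icam2 was at -0.17 (-0.25 to -0.08). Fn1 (fibronectin) was at 0.16 with an interval that held 0. All 11 genes of transforming growth factor beta signalling and tissue residency had enough UMIs, with 1 on each side (all genes 6.85% above and 3.98% below) and a median of -0.10. Zfp683 (Hobit), a factor of resident lymphocytes, had 56 UMIs (Irf4-/-) and 30 (WT), a ratio of 1.17 (0.51 to 1.86), and Smad3 was at 0.28. Prdm1 was at -0.76 (-1.11 to -0.42), and Klf2, which drives exit from tissues, had 391 CPM (Irf4-/-) and 493 (WT), a ratio of -0.34 (-0.36 to -0.31).

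Likeness of pattern was measured as Pearson's r of log2(CPM + 1) over 12 points, the 6 populations of each library, among genes with a mean of at least 50 CPM. The points share 2 libraries, and for most members the contrast of T with B-lineage cells dominates. Itgal was most like its partner Itgb2 (r = 0.994) and then Fyn (0.993), and Itgb2 was most like Nabp1 (0.996) and Itgal. Among the 10 T cell points r between Itgal and Itgb2 was 0.96, against 0.24 between Itga4 and Itgb1 and 0.72 between Itga4 and Itgb7. For Itga4 the nearest genes were Sqstm1 (0.89) and Slc38a1 (0.88), and for Itgb1 Pfkp (0.98) and Il2rb (0.98), which encodes the CD122 of the sort. Itgb7 was most like Ccdc85b and Prdx6 (both 0.99), Itga1 like Myl6 (0.97) and Tagln2 (0.96), and Itga6 like Itpkb and Runx3 (both 0.97). Itgae was nearest to Rplp0 (0.96) and Nme2 (0.95), and Itgam to Chtop and Hnrnpul1 (both 0.96), but at these counts such likeness of sparse genes is no finding.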

How the data were processed

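Bone marrow cells sorted as NKP were profiled with a droplet 3' kit, whose protocol text in the labels speaks of nuclei. The authors deposited UMI counts as whole numbers for each gene in each barcode, from Cell Ranger 6.1.1 per the file headers and with mm10 per the submitters' processing notes. Which annotation they counted on was not stated in the sources used here, and gene positions come from GENCODE on GRCm38.

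Barcodes with at least 500 genes, 1000 UMIs and under 10% mitochondrial UMIs were kept. T cells had at least 2 CD3 UMIs and at most 1 of CD79, and B-lineage cells the converse. Cells with at least 2 of each were left out as possible doublets, 269 in the library labelled Irf4-/- and 368 in that labelled WT, and no doublet caller was run. Alpha-beta and gamma-delta T cells were split by Trac and Trdc, and alpha-beta cells, in this order, by at least 2 UMIs of Cd8b1, Klre1 or Fcer1g. T cells without a receptor call, 202 (Irf4-/-) and 630 (WT), entered only the sum over T cells.

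UMIs were summed per library and population and scaled to a total of 1000000 (CPM). A UMI marks a transcript end, so no length was divided out. CPM have exact Poisson, shares exact Clopper-Pearson, and log2 ratios exact conditional binomial 95% intervals, with a floor of 3 counts at 0. For shares, each cell was reduced at random to 2000 UMIs, and 35 (Irf4-/-) and 71 (WT) shallower kept cells dropped out. No test was made with 1 library per genotype. The summing and ratio steps were tested on simulated data. Members, lists and the naming rule (the 2 highest and 2 lowest of each list and the 2 most like genes per member) were chosen with earlier results of these data known. Alternatives in scaling, filters, gates, depth and minimum were run. The depth and Cd8b1 weighting alternatives were added after seeing the data. Itgae overlaps Haspin and Itga4 overlaps Cerkl on the opposite strand. Analyses used Python 3.11.15, numpy 2.4.6, scipy 1.17.1, pandas 2.3.3 and matplotlib 3.10.9.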

Additional observations from a re-analysis of the deposited data

Results flagged for a closer look

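For 3 members the ratio had intervals clear of 0 on opposite sides in different populations, and the difference between the populations was not tested. With Irf4-/- over WT as labelled, the Itgb7 log2 ratio was 0.19 in Fcer1g-positive cells and -0.48 in B-lineage cells. For Itgb1 it was 0.57 in B-lineage cells and -0.11 in other alpha-beta T cells. For Itgal it was 0.38 in Fcer1g-positive cells and -0.69 in B-lineage cells. With the Vpreb1 or Igll1 cells left out, the B-lineage values of Itgb7 and Itgal had intervals that held 0.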

How the results depend on the processing

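Of 695 ratios recomputed under other settings, 627 moved by less than their counting interval and 60 moved further. The other 8 changed sign, all of them from ratios with intervals clear of 0. Changes of sign in ratios with intervals that held 0 were not counted among the 8. The Itga4 ratio turned to 0.13 in Cd8b1-positive cells and 0.30 in T cells among cells of 5000 to 10000 UMIs, and to 0.084 in Fcer1g-positive cells and 0.11 in T cells when bins of UMIs per cell were weighted equally. Itgb1 turned to -0.089 in B-lineage cells of 5000 to 10000 UMIs, to -0.053 in Cd8b1-positive cells with their Klre1 and Ccr7 kinds weighted equally, and to 0.0049 in other alpha-beta T cells gated on thinned counts. Itgb7 turned to -0.018 in Fcer1g-positive cells with overlapping gates. The causes were not tested. Of 38 ratios with intervals clear of 0, 31 kept their sign under every setting run, among them those of Itgal, Itgb2 and Itga1 in all 5 T populations. Neither other scaling turned the sign of any of these 38.

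Counts of members past the fold were small, so single genes near 0.5 moved them. The counts below have no share of all genes at the same settings beside them and are no result about the members. In Klre1-positive cells the count was 1, against 2, with gates on thinned counts, gates at 3 UMIs, overlapping gates, means over cells, and equal depth bins. In other alpha-beta T cells it was 1 with gates on thinned counts, without cycling cells, with median-of-ratios scaling, means over cells and equal depth bins, and was 4 with a minimum of 1 UMI in each library. It was 2 in Fcer1g-positive cells at that minimum, and 2 in gamma-delta T cells when scaled without ribosomal, mitochondrial and receptor genes. At a minimum of 1 UMI in each library Itgam also lay past the fold, at 0.85 (-2.19 to 6.37) in Klre1-positive and 2.04 in B-lineage cells. It was at 1.29 in Fcer1g-positive and at -1.47 in other alpha-beta T cells. All of these Itgam values in T populations had intervals that held 0. In B-lineage cells the count was 0 with gates on thinned counts and among cells of 5000 to 10000 UMIs, and 1 with at least 200 UMIs. In T cells it was 4 among cells of 5000 to 10000 UMIs and 1 with T populations weighted equally. At a fold of 1 on the log2 scale it was 0 in Fcer1g-positive and B-lineage cells and 1 in Cd8b1-positive, Klre1-positive, other alpha-beta T and all T cells.

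No paired analysis was possible because each genotype had 1 library. Depth limits Itgae and Itgam, which had under 3 and about 1 or fewer CPM in T cells, and Itga1 in B-lineage cells.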
